A study of Mus musculus with 6 samples.

Results

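The constitutive genes of the proteasome and of the COP9 signalosome were followed in RAW 264.7 cells, a mouse macrophage line, after exposure to bacterial lipopolysaccharide. The members are all genes on the array whose annotated symbol begins with Psma, Psmb, Psmc, Psmd, Psmf, Psmg or Cops followed by a digit, without the immunoproteasome subunits Psmb8, Psmb9 and Psmb10. This name rule, which used no measured value, gave 45 of the 10698 genes that the annotation names by 1 symbol, read by 55 probes. It also caught Psma8, a testis form of an alpha subunit, Psmb5-ps, a pseudogene whose probe may also bind Psmb5 transcripts, and Psmc3ip, a gene of meiotic recombination that is no proteasome subunit.

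Treated cells received lipopolysaccharide at 100 ng/ml with lipopolysaccharide-binding protein at 100 pM, and were cultured for 16 hours. Untreated cells of the same line were cultured for 16 hours without either agent. Each of 6 two-colour arrays carried total RNA of both: on 3 arrays the treated RNA was in Cy5 and the untreated RNA in Cy3, and on 3 arrays the dyes were the other way round, with sets 1, 2 and 3 in each orientation. Whether a set is a culture of its own is not in the labels, and the p-values below cover the spread from set to set, which may be technical. A line is 1 clone grown in culture, and the ratios give no level of any gene, so the macrophage label could not be checked by level. The list of macrophage markers held 8 symbols, some of them older names of the same genes. Of these symbols, 5 (Cd68, Csf1r, Adgre1, Lyz2 and Fcgr1) had ratios on all 6 arrays.

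The proteasome is the main protease for proteins tagged with ubiquitin. Its barrel, the 20S core, has outer rings of alpha subunits, which gate the entrance, and inner rings of beta subunits, of which Psmb5, Psmb6 and Psmb7 carry the active sites. The 19S particle caps the barrel: a ring of ATPases (Psmc genes) unfolds the substrate, and the Psmd genes encode the scaffold, the ubiquitin receptors and the lid, which removes ubiquitin. In immune cells exposed to interferon, Psmb8, Psmb9 and Psmb10 replace Psmb5, Psmb6 and Psmb7 in newly built cores and change the peptides cut for antigen presentation. The COP9 signalosome resembles the lid and removes the small protein Nedd8 from cullins, the scaffolds of a large family of ubiquitin ligases.

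Values are log2 ratios, treated over untreated, so a value above 0 means more RNA in treated cells, and the value of a set is the mean of its 2 orientations. A ratio needs RNA of both groups on 1 array and gives no level, so genes cannot be ranked by abundance here. The direction of the deposited ratios is not stated. Cy5 over Cy3 is the likely reading, because the labels name the Cy5 RNA as the test RNA in both orientations. The opposite reading would turn every sign round. As deposited, arrays of opposite orientation correlated between -0.852 and -0.622 over probes, and arrays of the same orientation between 0.771 and 0.839, as ratios not yet turned would. Of all genes, 9607 had a ratio on every array. Exact zeros, taken as no ratio given, made up 9.56% to 12.9% of the probes of an array.

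The bases before the start of 5 members are shown because their genes hold the largest called changes of the 19S particle (Psmd10, Psmd8 and Psmd14) or the catalytic sites (Psmb5 and Psmb6), and because the proteasome's known regulator Nfe2l1 binds the antioxidant response element. RefSeq (GRCm38.p6) gives a window of 250 bases before to 50 after the start for 35 of the 45 members, and 3 motifs were searched in it on both strands. Printed are the 250 bases before the start, 5′ to 3′ on the gene's strand, with matches in capitals: Psmb5 at chr14:54617996-54618245 (minus strand), Psmb6 at chr11:70525107-70525356 (plus strand), Psmd14 at chr2:61711444-61711693 (plus strand), Psmd10 at chrX:140956712-140956961 (minus strand) and Psmd8 at chr7:29180674-29180923 (minus strand).
Psmb5: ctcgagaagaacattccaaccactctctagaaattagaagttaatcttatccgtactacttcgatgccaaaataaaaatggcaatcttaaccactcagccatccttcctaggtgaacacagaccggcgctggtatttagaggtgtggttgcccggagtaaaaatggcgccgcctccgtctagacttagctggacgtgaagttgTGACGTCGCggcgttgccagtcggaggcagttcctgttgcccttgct
Psmb6: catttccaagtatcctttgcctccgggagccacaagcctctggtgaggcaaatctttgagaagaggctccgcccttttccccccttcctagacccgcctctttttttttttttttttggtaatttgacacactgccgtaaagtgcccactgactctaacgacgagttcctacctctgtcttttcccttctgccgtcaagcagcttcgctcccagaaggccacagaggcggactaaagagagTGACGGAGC
Psmd14: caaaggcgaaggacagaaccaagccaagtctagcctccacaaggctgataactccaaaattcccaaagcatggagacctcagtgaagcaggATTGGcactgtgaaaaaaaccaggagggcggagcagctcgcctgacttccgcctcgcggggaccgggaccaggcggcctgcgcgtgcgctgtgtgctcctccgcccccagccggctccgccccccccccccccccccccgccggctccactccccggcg
Psmd10: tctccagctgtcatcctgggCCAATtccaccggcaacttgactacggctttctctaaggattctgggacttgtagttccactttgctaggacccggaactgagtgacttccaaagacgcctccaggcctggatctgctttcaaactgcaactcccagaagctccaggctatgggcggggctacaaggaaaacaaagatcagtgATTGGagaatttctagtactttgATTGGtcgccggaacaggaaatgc
Psmd8: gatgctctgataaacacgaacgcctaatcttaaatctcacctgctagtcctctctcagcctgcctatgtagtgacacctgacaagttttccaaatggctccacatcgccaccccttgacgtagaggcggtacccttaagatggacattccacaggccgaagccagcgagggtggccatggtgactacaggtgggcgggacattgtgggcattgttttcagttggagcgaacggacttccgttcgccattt
In Psmb5 and Psmb6 the capitals mark TGACNNNGC, the core of the antioxidant response element, 47 and 9 bases before the start. In Psmd14 and Psmd10 they mark CCAAT or its reverse complement ATTGG, of which the Psmd14 window holds a further 2 that overlap each other just after the start, and Psmd8 holds none of the searched motifs in its window. Motif shares over RefSeq are of its 27025 genes with a window, whether on the array or not. Over the members TGACNNNGC was found in 6 of 35 windows (17.1%, RefSeq 14.0%), in Cops7a, Psmb5, Psmb6, Psmc6, Psmd12 and Psmd9. Of those genes 5 were tested and not called, where 16.7% of the tested members and 31.4% of all genes were called. Psmb6 was not tested in the fit over all 6 arrays. It was called up when 1 array of each set sufficed (limma adjusted p = 0.0107). A link between the motif and the calls was not tested. CCAAT was found in 13 member windows (37.1%, RefSeq 41.1%) and CCGGAAG, a motif of ETS factors, in 15 (42.9%, RefSeq 9.93%). No matches of different motifs overlap in the printed sequences. A match is a description of the letters, and the windows were not matched for base composition.

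Of the 45 members, 42 had a ratio on all 6 arrays and were tested. Psmb4, Psmb6 and Psmb7 were not, since their single probes lacked a ratio on some arrays. At an adjusted p under 0.05 (limma, 3 sets, Benjamini-Hochberg over all 9607 genes), 5 members rose and 2 fell in treated cells, 16.7% of the 42, against 31.4% of all genes tested. By direction, 11.9% of the members were up and 4.76% down, against 16.8% up and 14.6% down of all genes. The median log2 ratio was 0.06 over the members and -0.01 over all genes, and the members lay between -0.51 and 0.78 while all genes lay between -2.94 and 5.11. A mean of at least 0.5 in size was found in 4 of the 42 members (Psmd10, Psma6, Psmd8 and Psmc6), against 15.4% of all genes. Of the members 14 had the same sign on all 6 arrays, 33.3%, and the share over all genes was 35.6%. At an unadjusted limma p under 0.05, 18 of the 42 members and 3862 of the 9607 genes passed, which are similar shares.

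**Figure D1:**
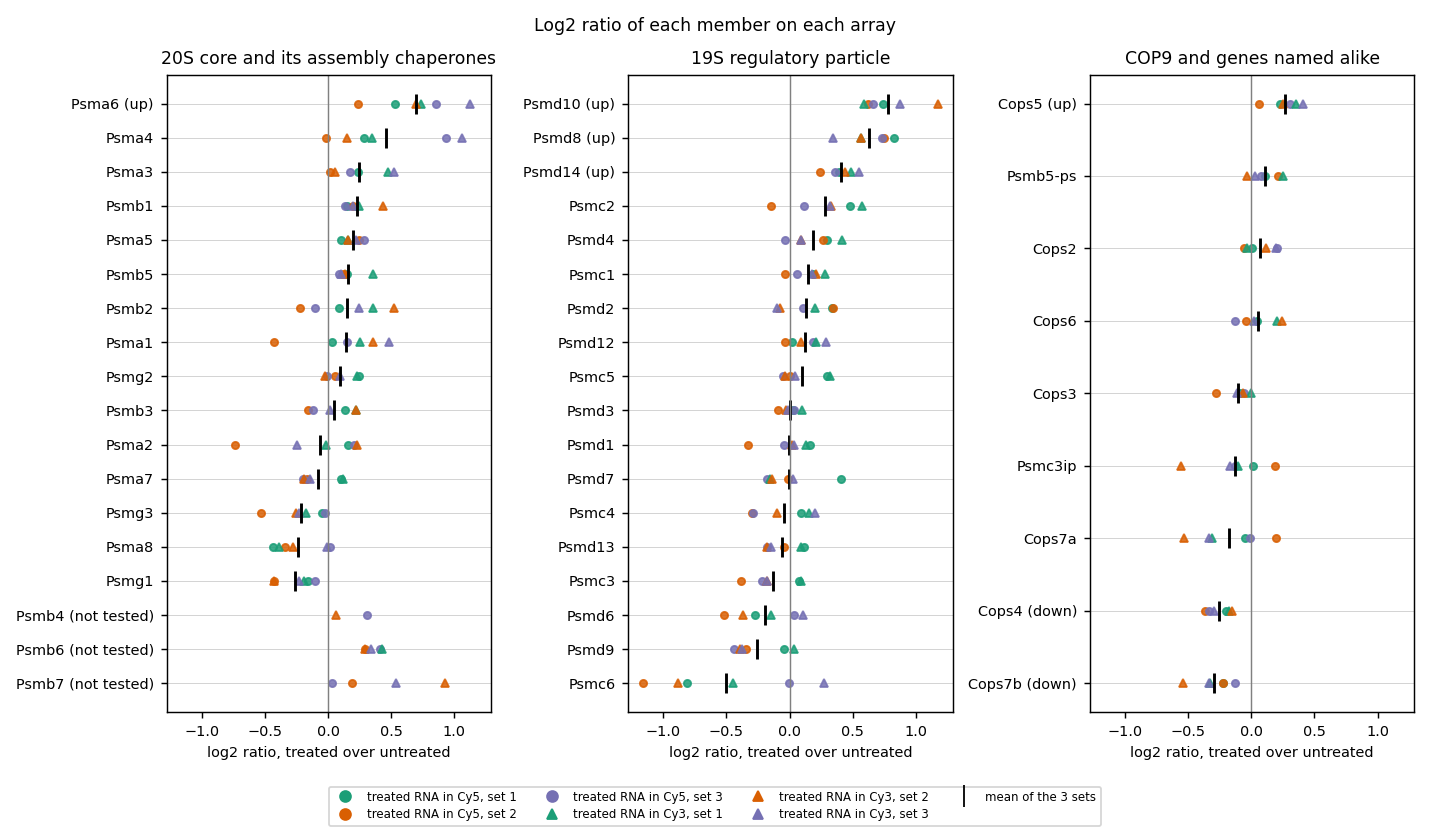
Log2 ratio, treated over untreated, of each of the 45 members on each array (horizontal axis), by complex, with circles for treated RNA in Cy5, triangles for treated RNA in Cy3, a colour for each set and a bar at the mean of the 3 sets. The called genes are marked up or down, most bars lie close to 0, and the points of Psmc6 and Psma4 split by set.

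Of the alpha ring, 8 genes were measured and 1 was called, 12.5% against 31.4% of all genes. Psma6, a subunit of that ring, rose 1.62-fold. Its log2 ratios were 0.53, 0.24 and 0.86 in sets 1, 2 and 3 with treated RNA in Cy5, and 0.73, 0.69 and 1.12 with treated RNA in Cy3. All 6 arrays lay above 0, set 3 was the highest in both orientations, and the mean was 0.70 ± 0.27 (SD, n = 3 sets, limma adjusted p = 0.00323). It was called under all 13 alternative settings, with adjusted p between 0.00046 and 0.0464.

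Psma4, another subunit of the ring, was not called. It had 0.29, -0.02 and 0.93 with treated RNA in Cy5 and 0.35, 0.15 and 1.06 with treated RNA in Cy3, a mean of 0.46 ± 0.48 (SD, n = 3, limma adjusted p = 0.0788). Set 3 lay far above sets 1 and 2 in both orientations. Without set 2 the mean was 0.66 (adjusted p = 0.0367), and without set 3 it was 0.19 (adjusted p = 0.203). Psma3 and Psma5 were above 0 on all 6 arrays, with means of 0.24 ± 0.18 and 0.19 ± 0.06 (SD, n = 3 each), and were not called (limma adjusted p = 0.081 and 0.0803). The other alpha genes lay between -0.24 for Psma8 and 0.14 for Psma1, and the ring as a whole had a median of 0.17.

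The beta ring was read by 7 genes, of which 4 could be tested. None was called, against 31.4% of all genes, and 1 had an unadjusted limma p under 0.05, beside 3862 of the 9607 genes. All 4 means were above 0, with a median of 0.15. Psmb1, which has no active site, was highest at 0.23 ± 0.08 (SD, n = 3, limma adjusted p = 0.0534), above 0 on all 6 arrays. Its 2 probes averaged 0.29 and 0.16, and only the first was called by itself (limma adjusted p over 13418 probes 0.0226 and 0.193). Psmb5, which carries the chymotrypsin-like site, had 0.15, 0.12 and 0.09 with treated RNA in Cy5 and 0.36, 0.13 and 0.10 with treated RNA in Cy3. Those 6 values are all above 0 and small, and the mean of 0.16 ± 0.08 (SD, n = 3) missed the threshold (limma adjusted p = 0.155).

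Psmb6, the caspase-like subunit, had no ratio in set 1 with treated RNA in Cy5. It had 0.29 and 0.41 in sets 2 and 3 of that orientation, and 0.43, 0.30 and 0.34 in sets 1, 2 and 3 with treated RNA in Cy3. The 5 values lie close together. When a gene needed only 1 array of each set, its mean was 0.36 with an SE of 0.0717, 1.29-fold higher in treated cells (limma adjusted p = 0.0107), in a setting that called 15.5% of all genes tested as up. Psmb7, the trypsin-like subunit, had no ratio in set 1; its values were 0.19 and 0.03 with treated RNA in Cy5 and 0.92 and 0.54 with treated RNA in Cy3, all above 0 and higher in the second orientation. Psmb4 had only 0.31, in set 3 with treated RNA in Cy5, and 0.06, in set 2 with treated RNA in Cy3.

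The constitutive catalytic genes were set against the immunoproteasome genes that replace them, array by array. Differences run as immunoproteasome gene minus constitutive gene, and the 3 pairs were tested by an exact two-sided sign-flip permutation test over sets, which cannot go below p = 0.25 with 3 sets or 0.5 with 2. Psmb5 averaged 0.16 and Psmb8 1.09 ± 0.10, a difference of 0.93 ± 0.08 (SD, n = 3 sets) or 1.90-fold, with Psmb8 the higher ratio on 6 of 6 arrays (exact p = 0.25). For Psmb7 and Psmb10 the difference was 0.67 ± 0.30 (SD, n = 2 sets), with Psmb10 higher on 4 of 4 arrays (exact p = 0.5). For Psmb6 and Psmb9 the difference was -0.13 ± 0.04 (SD, n = 3), with Psmb9 higher on 1 of 5 arrays (exact p = 0.25). After Benjamini-Hochberg adjustment over the 3 pairs these p-values were 0.375, 0.5 and 0.375. Each exact p was the smallest that its number of sets allows, so no pair could pass and the test decides nothing about the differences. In the fit over all genes Psmb8 and Psmb10 rose (limma adjusted p = 9.42e-05 and 8.77e-05), while Psmb9, at 0.27 ± 0.12 (SD, n = 3, adjusted p = 0.0378), had adjusted p of 0.2 without set 1 and 0.0769 without set 3.

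**Figure D2:**
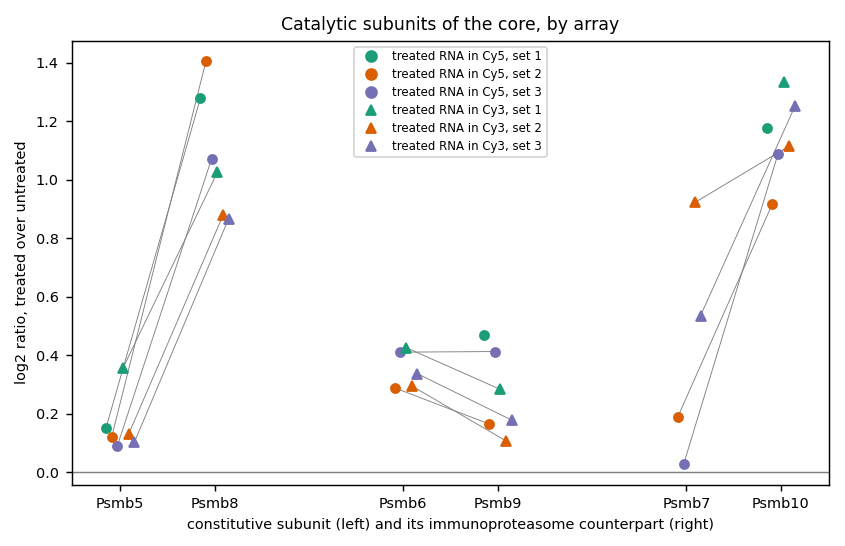
Log2 ratio, treated over untreated (vertical axis), of each constitutive catalytic gene at the left and its immunoproteasome counterpart at the right, with a point for each array and a line joining the same array. Psmb8 lies above Psmb5 on 6 of 6 arrays and Psmb10 above Psmb7 on 4 of 4, while Psmb9 lies above Psmb6 on 1 of 5; points without a line are arrays on which the partner had no ratio.

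The 3 chaperones of 20S core assembly that the name rule reaches, Psmg1, Psmg2 and Psmg3, held 0 calls (all genes, 31.4%). Of the 3, 2 had an unadjusted limma p under 0.05, beside 3862 of the 9607 genes. Psmg1 averaged -0.26 ± 0.15 (SD, n = 3) and was below 0 on 6 of 6 arrays (limma adjusted p = 0.0539). Psmg3 was also below 0 on 6 of 6 arrays, with a mean of -0.21 (limma adjusted p = 0.109), while Psmg2, the partner of Psmg1 in the cell, averaged 0.10. Of the genes named alike, Psmb5-ps averaged 0.11 and Psmc3ip -0.13, and neither was called.

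Of the 18 genes of the 19S particle, 3 rose and 0 fell (16.7% up, beside 16.8% of all genes), with a median log2 ratio of 0.05. At an unadjusted limma p under 0.05, 6 of the 18 passed, beside 3862 of the 9607 genes. The 3 that rose were Psmd10, Psmd8 and Psmd14. Psmd10, on chromosome X, encodes gankyrin, a chaperone that holds the ATPase Psmc4 during assembly of the base and is absent from the finished particle. Its values were 0.74, 0.62 and 0.66 with treated RNA in Cy5 and 0.59, 1.17 and 0.88 with treated RNA in Cy3. It was above 0.5 on all 6 arrays and the highest member at 0.78 ± 0.12 (SD, n = 3), 1.71-fold higher in treated cells (limma adjusted p = 0.000485). Its 2 probes gave 0.71 and 0.84. The other base chaperone, Psmd9, had a mean of -0.26 ± 0.22 (SD, n = 3, limma adjusted p = 0.0886).

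Psmd8 is a lid subunit, and its counterpart in yeast is the last to join when the lid is assembled. It had 0.82, 0.75 and 0.73 with treated RNA in Cy5 and 0.56, 0.56 and 0.34 with treated RNA in Cy3, so it was above 0 on every array and lower in the second orientation. Its mean was 0.63 ± 0.08 (SD, n = 3), 1.55-fold higher in treated cells (limma adjusted p = 0.000898). Psmd14 is the lid's metalloprotease, which cuts ubiquitin chains off the substrate at the entrance of the core. It had 0.39, 0.24 and 0.36 with treated RNA in Cy5 and 0.48, 0.44 and 0.55 with treated RNA in Cy3. These values cluster tightly, with a mean of 0.41 ± 0.06 (SD, n = 3), 1.33-fold higher in treated cells (limma adjusted p = 0.00513). Psmd10 and Psmd8 were called under all 13 alternative settings and Psmd14 under 12, its adjusted p being 0.0564 when only the 3 arrays with Cy5-labelled treated RNA were used.

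The other 5 lid genes were not called and had means between -0.19 for Psmd6 and 0.13 for Psmd12, so that the lid as a whole had a median of 0.00. The scaffold subunits Psmd1 and Psmd2 averaged -0.01 and 0.13, and the ubiquitin receptor Psmd4 0.18 (limma adjusted p = 0.157). None of the 6 ATPases was called, against 31.4% of all genes. An unadjusted limma p under 0.05 was found in 2 of them, beside 3862 of the 9607 genes. Psmc2 averaged 0.28 ± 0.22 (SD, n = 3, limma adjusted p = 0.073). Its 2 probes averaged 0.25 and 0.30, and only the second was called by itself (limma adjusted p over 13418 probes 0.156 and 0.0357). In sets 2 and 3 the first had -0.48 and -0.09 with treated RNA in Cy5, and 0.54 and 0.37 with treated RNA in Cy3. Psmc1, Psmc3, Psmc4 and Psmc5 lay between -0.13 and 0.14.

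Psmc6, the remaining ATPase, had the lowest mean of all members and split by set. It had -0.81, -1.16 and -0.01 with treated RNA in Cy5 and -0.45, -0.89 and 0.27 with treated RNA in Cy3. Sets 1 and 2 were below 0 in both orientations and set 3 was near or above 0 in both. The mean was -0.51 ± 0.59 (SD, n = 3, limma adjusted p = 0.0996), and without set 3 it was -0.83 (adjusted p = 1.79e-05). Psmd6, with -0.21, -0.45 and 0.07 in sets 1, 2 and 3, and Psma8, with -0.41, -0.31 and 0.00, were also below 0 in sets 1 and 2 and not in set 3, and without set 3 their adjusted p-values were 0.0243 and 0.0112. The part of set 3 in these results was not tested beyond leaving it out.

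**Figure D3:**
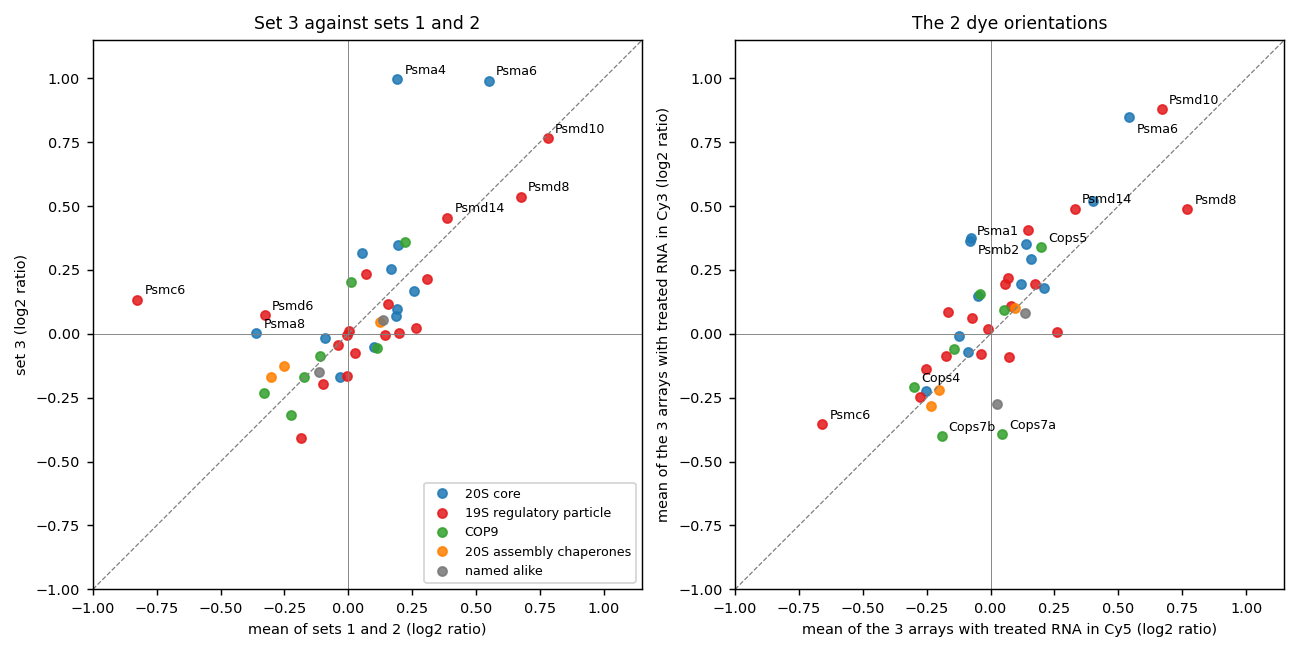
Mean log2 ratio of each of the 42 tested members in set 3 against the mean of sets 1 and 2 (left) and on arrays with treated RNA in Cy3 against those with treated RNA in Cy5 (right), with the dashed line marking equal values. Psmc6 and Psma4 lie farthest from the line in the left panel, and Psma1, Psmb2 and Cops7a have opposite signs in the 2 orientations in the right panel.

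The orientations were also compared. The mean had opposite signs in the 2 orientations for 10 of 42 members, 23.8%, against 35.0% of all genes, and 0 members were called for a difference between orientations (limma, adjusted over all genes, 35 of which were). Cops7a is one of those 10: its values were -0.05, 0.20 and -0.01 with treated RNA in Cy5, and -0.31, -0.54 and -0.33 with treated RNA in Cy3. The average of the orientations was almost the same in each set, so its SD over sets was 0.01. That SD hides a gap between orientation means of 0.05 and -0.39 (limma adjusted p of the gap 0.177 in the same unpaired fit with the dye term). Psma1 and Psmb2 had orientation means of -0.08 in Cy5 each, and of 0.36 and 0.37 in Cy3.

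Of the 7 COP9 genes measured, 1 rose and 2 fell (14.3% and 28.6%, beside 16.8% up and 14.6% down of all genes), and the median log2 ratio was -0.10. Cops5 encodes the subunit that cuts Nedd8 off cullins, a metalloprotease related to Psmd14. Its values were 0.23, 0.06 and 0.31 with treated RNA in Cy5 and 0.35, 0.25 and 0.41 with treated RNA in Cy3, above 0 on every array. Its mean of 0.27 ± 0.10 (SD, n = 3) is a 1.20-fold rise (limma adjusted p = 0.0338). Without set 1 its adjusted p was 0.143 and without set 3 it was 0.119.

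Cops4 and Cops7b, structural subunits of the complex, fell. Cops4 had -0.20, -0.37 and -0.34 with treated RNA in Cy5 and -0.18, -0.16 and -0.30 with treated RNA in Cy3. Cops7b had -0.22, -0.22 and -0.13 with treated RNA in Cy5 and -0.33, -0.54 and -0.34 with treated RNA in Cy3. All 12 of these values lie below 0, and the means were -0.26 ± 0.06 and -0.30 ± 0.08 (SD, n = 3 each), 1.19-fold and 1.23-fold lower in treated cells (limma adjusted p = 0.0326 and 0.0196). The Cops4 values average 2 probes with means of -0.205 and -0.306. Only the second was called by itself (limma adjusted p over 13418 probes 0.085 and 0.0183). Cops4 lost its call whichever set was left out (adjusted p of 0.0857, 0.108 and 0.111 without sets 1, 2 and 3), and Cops7b without set 1 (0.0817) or set 2 (0.0946).

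The remaining COP9 genes were not called. Cops3 was below 0 on 6 of 6 arrays, with a mean of -0.10, and Cops6 averaged 0.06. Cops2 was read by 2 probes that disagreed. The first had 0.25, 0.28 and 0.40 with treated RNA in Cy5 and 0.18, 0.40 and 0.30 with treated RNA in Cy3 (mean 0.30, limma adjusted p over 13418 probes 0.0215). The second had -0.23, -0.39 and 0.01 with treated RNA in Cy5 and -0.24, -0.17 and 0.10 with treated RNA in Cy3 (mean -0.16, adjusted p = 0.266), so the gene mean of 0.07 averages opposite signs. Psmc4 also had probes of opposite sign, neither of them called. The first had 0.04, -0.55 and -0.18 with treated RNA in Cy5 and 0.06, -0.32 and -0.06 with treated RNA in Cy3 (mean -0.17, adjusted p = 0.293). The second had 0.14, -0.04 and -0.41 with treated RNA in Cy5 and 0.25, 0.12 and 0.47 with treated RNA in Cy3 (mean 0.09, adjusted p = 0.47), so it differed in sign between the orientations in sets 2 and 3. Over the 10 members with several probes the median gap between probe means was 0.0809, with a range of 0.000596 to 0.457. Gps1, the subunit that the name rule does not reach, averaged -0.05 ± 0.07 (SD, n = 3, limma adjusted p = 0.675).

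The list of COP9 partner genes holds 27 symbols for cullins, their partners and the enzymes that attach or remove Nedd8, of which 20 were measured: 3 rose and 8 fell, with a median of -0.13 (all genes, 16.8% up and 14.6% down). The largest of these changes was in Skp2, the substrate receptor of the ligase that marks the cell cycle inhibitor p27 for destruction, which was 1.96-fold lower in treated cells (log2 ratio -0.97 ± 0.14, SD, n = 3, limma adjusted p = 0.000207). Rnf7, a RING subunit of cullin ligases, was 1.56-fold lower (-0.64 ± 0.16, SD, n = 3, adjusted p = 0.00164). Cul1, Cul2 and Cul4a fell, with log2 ratios of -0.36, -0.43 and -0.34, as did Nedd8 itself at -0.34, Dcun1d1, which promotes its attachment, at -0.39, and the adaptor Ddb1 at -0.26 (limma adjusted p between 0.00843 and 0.0293). Ddb1 was not called whichever set was left out (adjusted p of 0.116, 0.0778 and 0.0947 without sets 1, 2 and 3), nor were Cul1 and Nedd8 without set 2 (0.0999 and 0.0892) and Cul4a without set 1 (0.0676). Cul1, Cul2 and Dcun1d1 were lowest in set 2 with treated RNA in Cy5, at -0.93, -1.14 and -0.88. The other orientation of set 2 gave -0.26, -0.10 and -0.14. With treated RNA in Cy3 alone, Cul1, Cul2 and Ddb1 were not called (limma adjusted p = 0.186, 0.0998 and 0.105). In Cy5 alone, Cul4a, Nedd8, Dcun1d1 and Ddb1 were not called (0.0564, 0.0628, 0.0845 and 0.0777). Cul5 rose, with 0.38 ± 0.08, as did Ube2f, a Nedd8-conjugating enzyme, with 0.26 ± 0.06, and Uba3, a subunit of the enzyme that activates Nedd8, with 0.59 ± 0.41 (SD, n = 3 each, limma adjusted p = 0.0074, 0.0286 and 0.0204), the last with 1.07 in set 3. Ube2f was not called without set 1 (0.127) or set 2 (0.117). Without set 2 the list held 2 up and 5 down.

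Nfe2l1 is a known regulator of proteasome gene transcription, and Ngly1 helps to activate it when the proteasome is impaired. A link between Nfe2l1 and the ratios of the members was not tested. Nfe2l1 had log2 ratios of 1.34, 1.29 and 1.08 with treated RNA in Cy5 and 1.27, 1.52 and 1.14 with treated RNA in Cy3. All 6 values exceed those of every member except the highest arrays of Psmd10 and Psma6, and the mean of 1.27 ± 0.15 (SD, n = 3) is a 2.41-fold rise (limma adjusted p = 7.39e-05). Ngly1, the enzyme that removes sugar chains from Nfe2l1, rose 2.74-fold (1.45 ± 0.27, SD, n = 3, adjusted p = 0.00014). Of the list of 11 symbols for such factors, 9 were measured, 3 rose and 2 fell (all genes, 16.8% and 14.6%). The third was Stat3 at 0.48 ± 0.18 (adjusted p = 0.00621), and the falling genes were Nfyb and Nfyc, subunits of the CCAAT-binding factor, at -0.35 and -0.36 (adjusted p = 0.0135 and 0.0241). Neither was called without set 2 (adjusted p = 0.0706 and 0.108) or with treated RNA in Cy3 alone (0.0634 and 0.26). Nfe2l2, a relative of Nfe2l1, averaged -0.19 ± 0.21 (SD, n = 3, adjusted p = 0.193).

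Proteasome activators and further subunits were thinly covered, with 5 of 11 listed symbols on the array and 3 measured. Psme4, a nuclear activator, rose, with 0.38 ± 0.20 (SD, n = 3, limma adjusted p = 0.0202), and was not called without set 2 (0.0752) or set 3 (0.0518). The core maturation factor Pomp averaged 0.11 and the activator Psme3 -0.04, and neither was called. Psme2b, chosen after its values were seen, is nearly identical to the activator gene Psme2, whose transcripts its probe may also bind, and rose 2.10-fold (1.07 ± 0.08, SD, n = 3, adjusted p = 8.63e-05). Of 8 measured deubiquitinases and shuttle factors, 2 fell: the shuttle factors Ubqln4 at -0.44 and Ubqln2 at -0.24 (limma adjusted p = 0.0167 and 0.0366), beside 14.6% of all genes down. Ubqln4 was not called without set 2 (0.0578), nor was Ubqln2 without set 1, 2 or 3 (0.113, 0.135 and 0.0894).

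**Figure D4:**
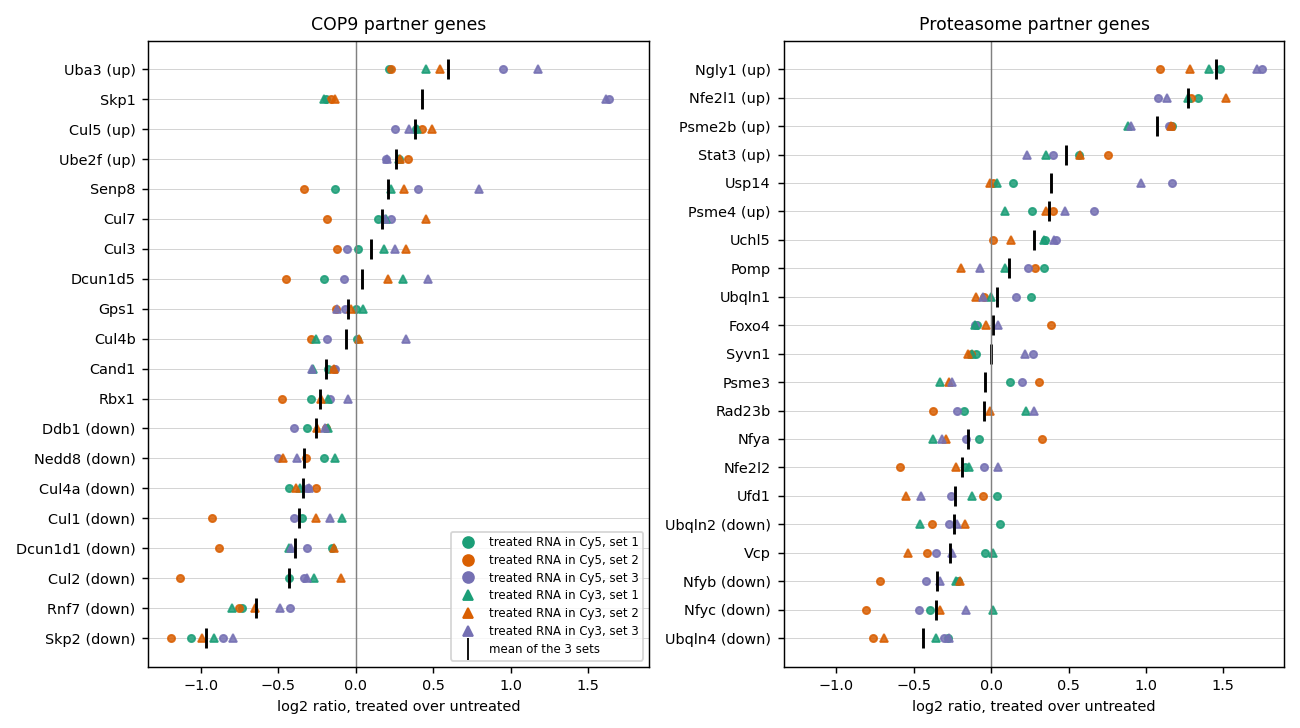
Log2 ratio, treated over untreated (horizontal axis), of each measured COP9 partner gene (left) and proteasome partner gene (right) on each array, with circles for treated RNA in Cy5, triangles for treated RNA in Cy3, a colour for each set and a bar at the mean of the 3 sets. Nfe2l1 and Ngly1 lie above 1 on every array, Skp2 lies lowest of the COP9 partners, and Skp1 and Usp14 split between set 3 and the other sets.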

How the data were processed

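The deposited value table holds log2 ratios of the 2 channels for 16281 probes on 6 arrays, as read from its signs and range. How the authors made these deposited log2 values (background correction, normalization, scanner) is not given in the sources used here. All 6 columns have a median of 0 as deposited, and the highest value, 6.64, equals the log2 of 100, so ratios look capped. Scanner intensities were not analysed here, and depth has no counterpart on arrays: the number of arrays limits the precision. The labels name the line 264.7 in most places and 264.4 in others.

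Ratios were turned to treated over untreated by the dyes in the labels. An exact 0 was taken as missing (1074 probes had it on every array, 1789 on some arrays), and 13418 probes had a ratio on all 6. The platform annotation gave 1 symbol to 13738 probes, several to 52 and none to 2491. The RefSeq table of GRCm38.p6 held the Entrez identifiers of all 55 member probes, and 0 symbols needed an update. Probes of a gene were averaged, then the 2 orientations of a set, and the 3 set values were tested against 0 with limma 3.58.1 in R 4.3.3 (lmFit and eBayes), with Benjamini-Hochberg adjustment over 9607 genes and an adjusted p under 0.05 as a call. The procedure was tested on simulated data. Arrays sharing a set number deviated together with correlations of 0.188, 0.0498 and 0.544 for sets 1, 2 and 3, so a shared RNA source is not shown for all 3 sets. The orientations were still averaged within a set in the main fit, so that no set counts as 2 samples there. Promoters were searched in Python 3.11.15. All members may be named. Values on each array are given for called members, catalytic subunits and members with disagreeing probes, and in addition for Psmb4, which had ratios on only 2 arrays, and for Psma4, Psmc6 and Cops7a, chosen after their values were seen. Of the partner lists, called genes are named with values, and a few uncalled ones (Gps1, Pomp, Psme3, Nfe2l2, Skp1, Usp14 and Senp8) were chosen after their values were seen. The members and lists were chosen with earlier results of these data known. In all, 13 alternatives were tried.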

Additional observations from a re-analysis of the deposited data

How the results depend on the processing

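Over 70 single genes and 13 alternatives, 799 of 910 values kept their direction and side of the threshold, 59 were no longer called, 29 became called and 23 changed sign, all of them of genes that were not called. Member calls of 5 up and 2 down became 10 up and 5 down with the 6 arrays as separate samples and no replicate block, 3 up and 0 down with treated RNA in Cy5 alone, and 11 up and 2 down with treated RNA in Cy3 alone. The share called was 35.7% of members and 38.0% of all genes with no replicate block, 7.14% and 22.5% with treated RNA in Cy5 alone, and 30.95% and 32.3% in Cy3 alone. With the set as replicate block 6 members rose and 3 fell, and Cul2 (limma adjusted p = 0.0546), Dcun1d1 (0.0679) and Ubqln2 (0.128) were not called. Leaving out a set in turn gave 4 to 7 up and 0 to 5 down. Of the 20S genes 1 was up: 2 with zeros kept, with a ratio in at least 1 array of each set, with robust moderation or with the replicate block, 5 with no replicate block (and 1 down), 6 with treated RNA in Cy3 alone, and 1 to 3 up and 0 to 1 down without a set. The 19S genes had 1 down with no replicate block and 0 to 2 without a set. Of the COP9 genes 0 were up and 3 down with zeros kept, and 0 were up and 0 down with treated RNA in Cy5 alone. Leaving out a set gave 0 to 1 of them up and 0 to 1 down. Psmb8 minus Psmb5 was 1.13 with treated RNA in Cy5 alone and 0.73 in Cy3 alone, and Psmb9 minus Psmb6 was -0.061 in Cy5 alone. Signs turned with treated RNA in Cy5 alone for Psma1 (-0.082), Psmb2 (-0.078), Psmb3 (-0.049), Psmd3 (-0.0096), Psmd7 (0.073), Cops6 (-0.043), Cops7a (0.047) and Psmc3ip (0.026), and in Cy3 alone for Psmc4 (0.085), Psmd1 (0.062) and Pomp (-0.059). They turned with quantile normalization for Psmd1 (0.016) and Psmd7 (0.0039) and with arrays centred for Psmd1 (0.00023). Without a set, values ran from -0.14 to 0.026 for Psma2, -0.012 to 0.10 for Psmb3, -0.12 to 0.038 for Psmc4, -0.011 to 0.15 for Psmc5, -0.081 to 0.071 for Psmd1, -0.025 to 0.037 for Psmd3, -0.076 to 0.026 for Psmd7 and -0.17 to 0.74 for Skp1. The cause of these changes was not tested. Among all genes 1618 up and 1400 down became 1200 and 903 with zeros kept, and the authors' unstated normalization could not be varied.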

Other observations

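Beyond the members, Skp1, Usp14, Uba3 and Senp8 were higher in set 3 than in sets 1 and 2 in both dye orientations. Skp1, an adaptor of cullin ligases, had log2 ratios of -0.19, -0.16 and 1.63 in sets 1, 2 and 3 with treated RNA in Cy5 and -0.21, -0.14 and 1.61 with treated RNA in Cy3, so that its mean was not called (limma adjusted p = 0.413). Usp14, a deubiquitinase that docks on the 19S particle, had 0.14, 0.01 and 1.17 with treated RNA in Cy5 and 0.04, -0.01 and 0.97 with treated RNA in Cy3 (limma adjusted p = 0.202). Uba3 had 0.21, 0.23 and 0.95 with treated RNA in Cy5 and 0.45, 0.55 and 1.18 with treated RNA in Cy3. Senp8, a protease of Nedd8, had -0.13, -0.33 and 0.40 with treated RNA in Cy5 and 0.23, 0.31 and 0.79 with treated RNA in Cy3 (limma adjusted p = 0.271). Without set 3 the mean log2 ratio was -0.17 for Skp1 and 0.04 for Usp14. Among the members, Psma4 was also higher in set 3 than in the other sets, and Psmc6 stood nearer 0 there.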
